A study of Oryza sativa with 24 samples.

Results

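Transcript counts of 9 rice genes that write, maintain or remove DNA methylation were followed across 8 groups of developing inflorescences. The genes were chosen by a fixed list of locus identifiers, drawn up with earlier results of these data known. All 9 are among the 26480 loci of the count table and among the 23658 loci that passed the filter on low counts. They are the maintenance methyltransferases MET1-1 (LOC_Os03g58400) and MET1-2 (LOC_Os07g08500), the de novo methyltransferase DRM2 (LOC_Os03g02010), the chromomethylases CMT3a (LOC_Os10g01570) and CMT3b (LOC_Os03g12570), the chromatin remodellers DDM1a (LOC_Os09g27060) and DDM1b (LOC_Os03g51230), and the demethylases ROS1a (LOC_Os01g11900) and ROS1c (LOC_Os05g37350). The names come with the list and are not in the count table. RefSeq's gene table for the species holds 5 of the 9 names (MET1-1, MET1-2, DRM2, CMT3a and ROS1c) on the chromosome that the identifier gives, and it pairs none of the identifiers with a name.

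Inflorescences came from rice of the line named 9522, either wild type (WT) or the tap mutant, at a length of 2 mm or 3 mm and from plants at a high or a low temperature. Each combination of genotype, length and temperature has 3 libraries, 24 in all. The mutant is called tap in the genotype field and ild in the sample titles. The 8 groups are thus tap or WT, at 2 mm or 3 mm, at high or low temperature, and apart from these names no allele or agent is named. The high-temperature mutant libraries carry the column name iHT in place of the mutant name and were taken as tap by inference, which every high-temperature tap value rests on. The sources used here do not give the mutated locus, the degrees, the length of the treatment, the plants pooled for a library or whether replicates are separate plants. Each p-value therefore reflects the spread of these libraries, which may be technical.

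Plants methylate cytosine in several sequence contexts, each kept by its own enzyme. MET1 copies CG methylation onto the new strand after DNA replication, CMT3 keeps CHG methylation where histones carry a repressive mark, and DRM2 adds methylation de novo where small RNAs guide it. DDM1 remodels nucleosomes so that the methyltransferases can reach compact, transposon-rich chromatin. The ROS1 proteins work in the other direction: they are DNA glycosylases that cut out methylated cytosine, after which repair puts an unmethylated base in its place. In rice, loss of MET1-2 function is known to be lethal to seedlings, drm2 mutants have defects in vegetative and panicle growth, ROS1a is required for the male and female gametophyte and acts in the seed, and ROS1c is known for demethylating a retrotransposon.

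Library totals ran from 19819257 to 21305381 counts. Levels are CPM (counts per 1000000 counts of the library) with library sizes scaled by the TMM method, and each is the mean ± SD over 3 libraries. They were not divided by gene length, so levels are compared between groups for 1 gene and never between genes. The lowest count of any of the 9 genes in any library was 40 (CMT3b) and the highest was 6290 (DDM1b), so none of the genes was near the limit of detection. A list of 9 inflorescence and floral meristem loci was used to check the labelled tissue. The loci of this and of the other lists were compiled from rice gene nomenclature, and no annotation used here checks their membership. Of the 9, 8 had at least 10 counts in every library, and their summed level was 1230 to 2580 CPM. In tap, against WT at high temperature, 2 of the 9 were higher and 2 lower at 2 mm, and 3 higher and 2 lower at 3 mm. Of all loci, 18.4% and 18.6% were at 2 mm and 19.3% and 17.8% at 3 mm. The 2 lower loci fell by more than any of the 9 methylation genes. They were LOC_Os03g11614 (log2 difference -2.46 ± 0.0978 SE and -1.77 ± 0.0951) and LOC_Os06g45460 (-3.55 ± 0.521 and -1.75 ± 0.507). At low temperature 3 were higher at 2 mm and 4 at 3 mm, and 0 lower, where 15.0% and 11.7% of all loci were called. The part of tissue make-up in the differences of the 9 genes was not tested. The high- and low-temperature libraries have columns named in different styles, their TMM factors did not overlap (0.905 to 0.978 against 1.03 to 1.08), and only low-temperature counts had decided which loci the table lists. Separate handling of the 2 sets and temperature cannot be told apart in any comparison of temperatures, and part of any such difference in level depends on the scaling.

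**Figure D1:**
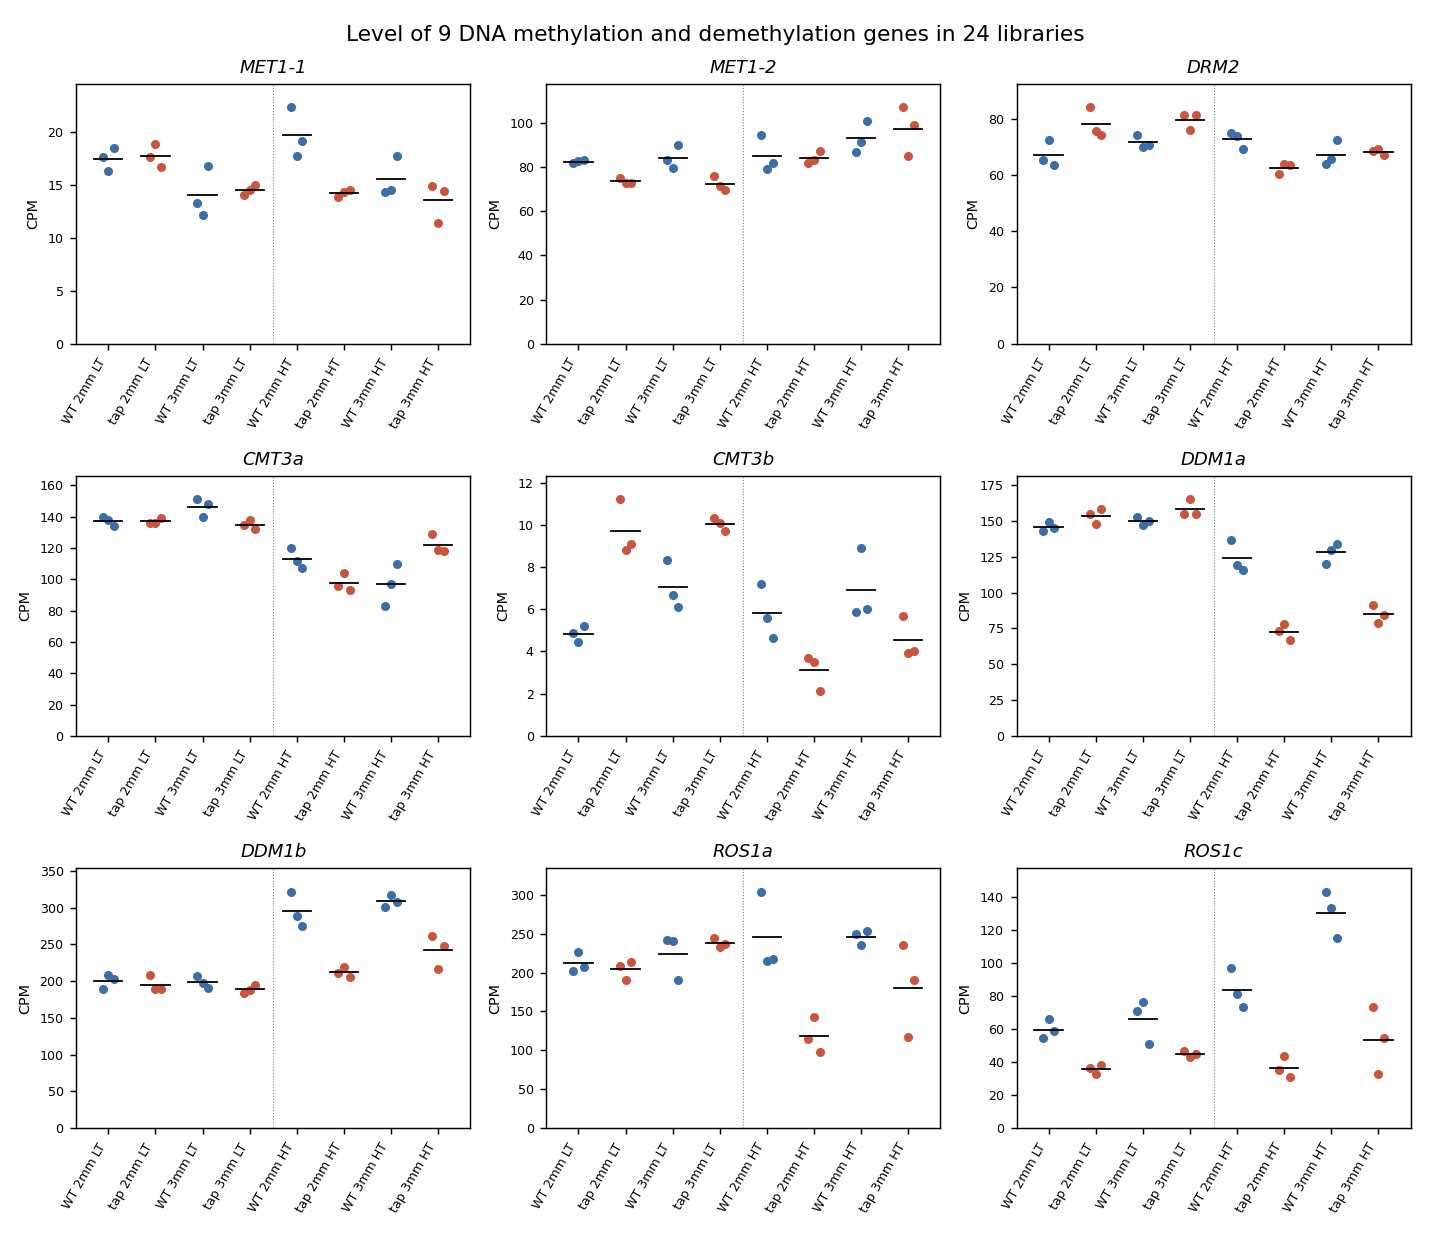
Level in CPM (y axis, from 0) of each of the 9 genes in each library, by group (x axis, LT low and HT high temperature; blue WT, red tap; the 3 points of a group are its libraries and the bar is their mean). The tap libraries lie below the WT libraries at high temperature for DDM1a, DDM1b, ROS1c and CMT3b at each length, while at low temperature the 2 genotypes lie close together for DDM1a, DDM1b and ROS1a.

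At high temperature, 2 mm tap inflorescences held less transcript of most genes of the set than WT. Of the 9 genes, 7 were lower in tap and 0 were higher at an adjusted p under 0.05 (edgeR quasi-likelihood test, Benjamini-Hochberg adjustment over all loci), where 18.6% of all tested loci were lower, 18.4% were higher and 37.0% were called in all. The median log2 difference of the 9 genes was -0.48, against 0 for all loci. The demethylases had the largest differences, followed by CMT3b and DDM1a, while MET1-2 did not differ detectably. In 3 mm inflorescences 4 genes were lower and 1 was higher, where 17.8% and 19.3% of all loci were, and 37.1% in all, and the median log2 difference was -0.35. At high temperature the tap and WT libraries did not overlap for 8 of the 9 genes at 2 mm and 6 at 3 mm, where they did not for 43.2% and 43.7% of all loci. In these bulk libraries fewer cells of a type and less RNA per cell cannot be told apart.

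The remodeller DDM1a showed the clearest genotype difference relative to its error. At high temperature its 2 mm libraries held 73.5, 78.2 and 66.6 CPM in tap and 137, 119 and 116 CPM in WT. The 2 sets of libraries did not overlap, and tap was 1.7-fold lower (log2 difference -0.77 ± 0.0843 SE, adjusted p = 2.1e-08). At 3 mm the tap libraries held 91.2, 78.7 and 84.5 CPM and the WT libraries 120, 130 and 134 CPM, again without overlap (log2 difference -0.59 ± 0.0839, adjusted p = 1.8e-06). DDM1b, the second remodeller gene, moved the same way by less. Its tap libraries of 2 mm held 211, 220 and 206 CPM against 322, 289 and 275 CPM in WT (log2 difference -0.48 ± 0.0841, adjusted p = 4.9e-05). At 3 mm the tap libraries stood at 262, 216 and 248 CPM and the WT libraries at 301, 317 and 308 CPM (log2 difference -0.35 ± 0.0839, adjusted p = 0.0014). All tap libraries were thus below all WT libraries for both remodeller genes at each length.

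The demethylase gene ROS1c was lower in tap at each length at high temperature. Its 2 mm libraries held 34.9, 43.3 and 30.9 CPM in tap and 96.9, 80.9 and 73.2 CPM in WT, a 2.3-fold difference (log2 -1.20 ± 0.211, adjusted p = 0.00019). At 3 mm the tap libraries held 73, 32.6 and 54.4 CPM and the WT libraries 143, 133 and 115 CPM, a 2.44-fold difference (log2 -1.29 ± 0.208, adjusted p = 7.6e-05). The tap libraries of 3 mm spread widely, by more than a factor of 2, yet the highest of them was below the lowest WT library. ROS1a, the gene of the related demethylase, was 2.08-fold lower in tap at 2 mm, with 114, 143 and 97.6 CPM against 304, 215 and 217 CPM (log2 -1.06 ± 0.183, adjusted p = 0.00013). At 3 mm its tap libraries held 235, 117 and 190 CPM and its WT libraries 249, 236 and 253 CPM. The highest tap library stood just below the lowest WT library, and the difference was not called (log2 -0.44 ± 0.181, adjusted p = 0.06). It was called once replicate 1 of these tap libraries was left out (log2 -0.67, adjusted p = 0.0035), by DESeq2 (adjusted p = 0.022) and with RLE size factors (adjusted p = 0.048).

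The summed level of the 4 listed anther loci present in the table was, like ROS1c, lower in tap, though not every locus of the list was. At high temperature the 2 mm libraries summed to 275 to 378 CPM (tap) and 519 to 589 CPM (WT), and the 3 mm libraries to 384 to 461 CPM (tap) and 591 to 649 CPM (WT). At low temperature the sums were 250 to 263 CPM (tap) and 332 to 372 CPM (WT) at 2 mm, and 328 to 372 CPM (tap) and 434 to 503 CPM (WT) at 3 mm. Of the 4 loci, 2 were lower in tap and 0 higher at each length at high temperature, where 18.6% (2 mm) and 17.8% (3 mm) of all loci were lower. They were LOC_Os03g58600 (log2 -1.13 and -1.20) and LOC_Os01g68870 (-0.75 and -0.48). At low temperature 2 and 1 were lower and 0 higher (2 mm and 3 mm). Of all loci 7.3% were lower at 2 mm and 11.7% were called at 3 mm. Each of the 4 had at least 43 counts in every library. One of the 4, LOC_Os01g59660, had positive log2 differences at high temperature that were not called (0.20 and 0.31, adjusted p = 0.25 and 0.069). LOC_Os07g36460 was not called either, with log2 differences of -0.47 and -0.09 at high and 0.30 and 0.16 at low temperature. The part of anther tissue in the ROS1c difference was not tested.

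Among the methyltransferases, the 2 chromomethylase genes behaved differently. CMT3b, a weakly counted gene (40 to 240 counts per library), held 3.71, 3.48 and 2.13 CPM in 2 mm tap libraries at high temperature and 7.21, 5.58 and 4.62 CPM in WT, 1.86-fold lower in tap (log2 -0.90 ± 0.216, adjusted p = 0.0016). At 3 mm it held 5.7, 3.92 and 4.04 CPM in tap and 5.89, 8.89 and 5.99 CPM in WT (log2 -0.60 ± 0.206, adjusted p = 0.022). That call at 3 mm rested on single libraries: it ended with the 6 libraries alone (adjusted p = 0.062), without replicate 2 of WT (log2 -0.38, adjusted p = 0.19) and without replicate 2 or 3 of tap (log2 -0.52 in each case, adjusted p = 0.084 and 0.088). CMT3a, which keeps CHG methylation in rice, was the only gene of the set called higher in tap at high temperature. It held 129, 119 and 118 CPM in 3 mm tap libraries and 83.2, 96.9 and 110 CPM in WT, 1.26-fold higher (log2 0.34 ± 0.086, adjusted p = 0.0025). At 2 mm its 3 tap libraries, at 95.7, 104 and 93.5 CPM, were all below the WT libraries at 120, 112 and 107 CPM, and the difference was not called (log2 -0.21 ± 0.086, adjusted p = 0.053). With only the 6 libraries of 3 mm at high temperature in the model, the CMT3a call was just missed (adjusted p = 0.0502).

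The other methyltransferase genes differed by little. MET1-1 was 1.39-fold lower in 2 mm tap inflorescences, at 13.8, 14.3 and 14.5 CPM against 22.3, 17.7 and 19.1 CPM (log2 -0.48 ± 0.127, adjusted p = 0.004), and at 3 mm its libraries overlapped, with means of 13.6 ± 1.91 (tap) and 15.5 ± 1.89 CPM (WT, adjusted p = 0.26). MET1-2 had means of 84 ± 2.92 (tap) and 85 ± 8.27 CPM (WT) at 2 mm and 97 ± 11.2 (tap) and 93.1 ± 7.5 CPM (WT) at 3 mm, with overlapping libraries each time. DRM2 was 1.16-fold lower in tap at 2 mm, at 62.5 ± 1.85 against 72.6 ± 3.12 CPM (log2 -0.22 ± 0.0804, adjusted p = 0.034), and at 3 mm the levels were 68.2 ± 1.04 and 67.2 ± 4.53 CPM. The DRM2 call was the least stable of the 7. It ended with RLE size factors (adjusted p = 0.055), without the filter on low counts (adjusted p = 0.083), with the 6 libraries alone (adjusted p = 0.14), without any 1 of the 3 tap libraries (adjusted p = 0.084 to 0.113) and without replicate 1 or 2 of WT (adjusted p = 0.17 and 0.16).

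Because maintenance methylation is tied to DNA replication, 7 replication loci were followed beside the set. In 2 mm inflorescences at high temperature 6 of the 7 were lower in tap and 0 higher (median log2 difference -0.45), where 18.6% of all loci were lower, and their libraries summed to 1050 to 1190 CPM (tap) and 1280 to 1640 CPM (WT). At 3 mm 2 were lower and 1 higher (median -0.31), where 17.8% and 19.3% of all loci were, with sums of 1370 to 1610 CPM (tap) and 1530 to 1690 CPM (WT). At low temperature 0 of the 7 were called at either length, where 15.0% (2 mm) and 11.7% (3 mm) of all loci were. All 7 log2 differences were below 0 there too, with medians of -0.21 (-0.32 to -0.16) at 2 mm and -0.18 (-0.23 to -0.07) at 3 mm. The interaction was called for 0 of the 7 at 2 mm and for 1, positive, at 3 mm, where 26.8% and 26.4% of all loci were called. The part of replicating cells in the differences of the 9 genes was not tested. A list of 5 leaf loci summed at high temperature to 36.5 to 67 CPM (tap) and 26.7 to 28.1 CPM (WT) at 2 mm, with 1 locus higher in tap and 0 lower, and to 39.3 to 72.2 CPM (tap) and 18.7 to 29.1 CPM (WT) at 3 mm, with 2 higher and 0 lower. At low temperature it summed to 19.4 to 45.2 CPM (tap) and 22 to 60.3 CPM (WT) at 2 mm, with 0 higher and 1 lower (median log2 difference -0.36), and to 64.1 to 148 CPM (tap) and 62.1 to 157 CPM (WT) at 3 mm, with 0 called. Of all loci, 18.4% (2 mm) and 19.3% (3 mm) were higher in tap at high temperature. At low temperature 7.3% of all loci were lower at 2 mm, and 11.7% were called at 3 mm. Only 2 of the 5 leaf loci had at least 10 counts in every library, and the lowest count was 0. The locus called lower was LOC_Os12g19470 (log2 -4.38 ± 1.48, edgeR adjusted p = 0.043). In the 2 mm tap libraries at low temperature 1 of the 5 was at 0 throughout. The part of leaf tissue was not tested.

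**Figure D2:**
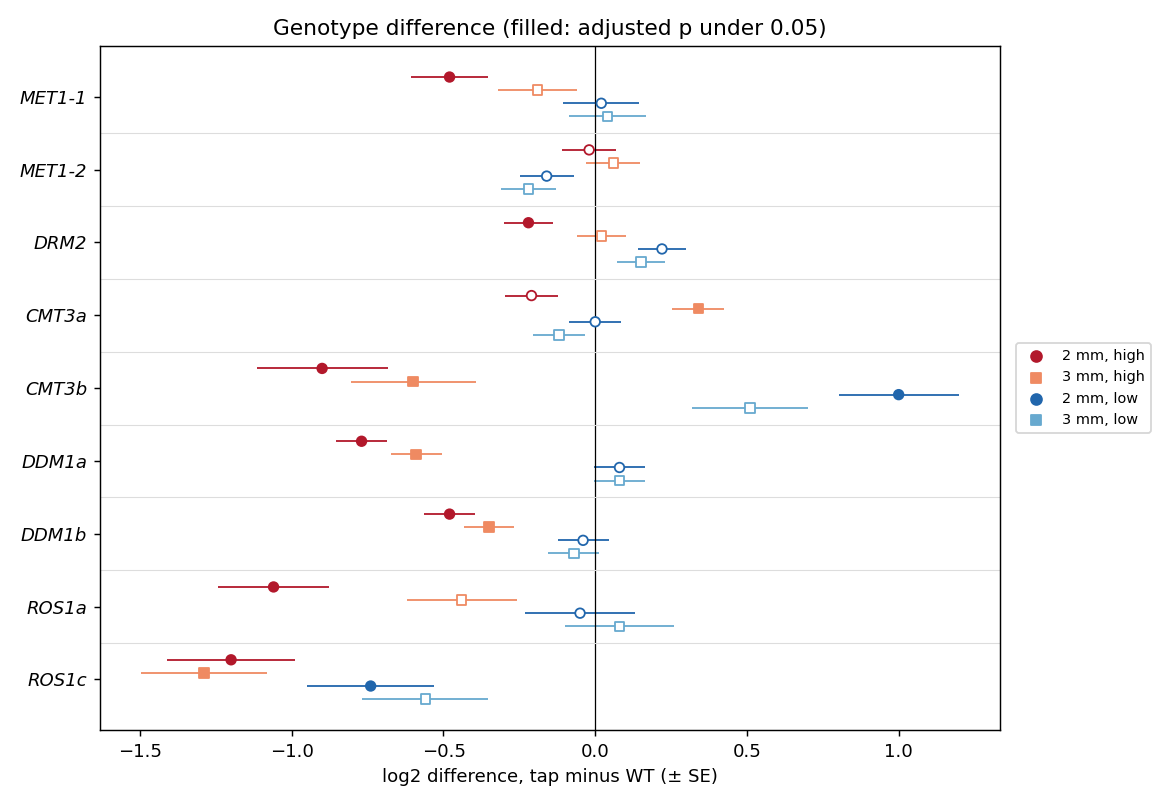
Log2 difference between tap and WT (x axis; points right of 0 are higher in tap; bars are ± SE of the edgeR model) for each gene (y axis) at each length and temperature; filled points had an adjusted p under 0.05. At high temperature 7 genes at 2 mm and 4 genes at 3 mm have filled points left of 0, and at low temperature the filled points are CMT3b and ROS1c at 2 mm.

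At low temperature few genes of the set were called different between tap and WT. In 2 mm inflorescences 1 of the 9 genes was higher and 1 lower in tap, where 7.67% and 7.3% of all loci were and 15.0% were called in all. CMT3b was 2-fold higher in tap, at 11.2, 8.79 and 9.11 CPM against 4.88, 4.47 and 5.2 CPM in WT (log2 1.00 ± 0.198, adjusted p = 0.00058), which is the opposite of its direction at high temperature. ROS1c was 1.66-fold lower in tap, at 36.4, 32.6 and 38.4 CPM against 54.6, 65.7 and 58.5 CPM (log2 -0.74 ± 0.21, adjusted p = 0.022). Its call ended without replicate 1 of tap, replicate 2 of tap or replicate 2 of WT (adjusted p = 0.064, 0.085 and 0.084), while the log2 difference stayed at -0.66 or lower. DRM2 had all 3 tap libraries (74.2 to 84 CPM) above the WT libraries (63.5 to 72.3 CPM), the opposite of its order at high temperature, and was not called (log2 0.22 ± 0.0799, adjusted p = 0.064). It was called by DESeq2 (adjusted p = 0.031) and with the 6 libraries alone (adjusted p = 0.029), a fit that also called MET1-2 (log2 -0.17, adjusted p = 0.032).

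In 3 mm inflorescences at low temperature 0 of the 9 genes were called by edgeR, where 11.7% of all loci were, and 3 had an unadjusted p under 0.05. DESeq2 called 1, ROS1c (adjusted p = 0.023). The shares of all loci by unadjusted p and by DESeq2 are not given here. For ROS1c the libraries held 46.8, 42.9 and 44.6 CPM in tap and 71, 76.5 and 50.6 CPM in WT (log2 -0.56 ± 0.208, adjusted p = 0.091). The 2 groups did not overlap, and replicate 3 of WT lay apart from the other two. Without it the difference was called (log2 -0.72, adjusted p = 0.04). With the 6 libraries alone it was called as well, as was CMT3b (adjusted p = 0.012 and 0.03). CMT3b held 10.3, 10.1 and 9.71 CPM in tap and 8.35, 6.68 and 6.1 CPM in WT (log2 0.51 ± 0.192, adjusted p = 0.085). MET1-2 was lower in tap without overlap and was not called (log2 -0.22 ± 0.0893, edgeR adjusted p = 0.11). The libraries did not overlap for 4 of the 9 genes at 2 mm and 6 at 3 mm at low temperature, where they did not for 38.9% and 33.3% of all loci. DDM1a differed by 0.08 ± 0.0828 on the log2 scale at each length, DDM1b by -0.04 ± 0.084 and -0.07 ± 0.084, and ROS1a by -0.05 ± 0.18 and 0.08 ± 0.18, at 2 mm and 3 mm in turn.

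Whether the genotype difference depended on temperature was tested as an interaction, the log2 difference of tap and WT at high temperature minus that at low temperature. At 2 mm 6 of the 9 genes had a negative and 0 a positive interaction, where 13.6% and 13.2% of all loci did and 26.8% were called in all. CMT3b had the largest, at -1.89 ± 0.293 (adjusted p = 1.5e-05), with tap above WT at low and below WT at high temperature. ROS1a followed with -1 ± 0.256 (adjusted p = 0.0062) and DDM1a with -0.85 ± 0.118 (adjusted p = 3.2e-06). Those of MET1-1, DRM2 and DDM1b were -0.50, -0.43 and -0.44 (adjusted p = 0.039, 0.0049 and 0.0063). The MET1-1 call was lost without 8 of the 12 libraries of that length in turn (adjusted p = 0.06 to 0.155), with library totals alone (adjusted p = 0.068) and without the filter (adjusted p = 0.057). The interaction of ROS1c was not called (-0.47 ± 0.296, adjusted p = 0.26), so its larger difference at high temperature was not shown to exceed that at low temperature.

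At 3 mm the interaction was called for 3 genes, 2 negative and 1 positive, where 12% and 14.3% of all loci were and 26.4% in all. The negative ones were CMT3b at -1.11 ± 0.281 (adjusted p = 0.004) and DDM1a at -0.67 ± 0.118 (adjusted p = 9.5e-05), both of which were also called at 2 mm. The positive one was CMT3a at 0.45 ± 0.121 (adjusted p = 0.0059), whose interaction at 2 mm was -0.21 ± 0.121 (adjusted p = 0.21). DDM1b, ROS1a and ROS1c had interactions of -0.28 ± 0.119, -0.53 ± 0.255 and -0.73 ± 0.292 that were not called (adjusted p = 0.082, 0.14 and 0.075). With replicate 1 of 3 mm tap at high temperature left out all 3 were called (-0.33, -0.75 and -1.01), which took the count from 3 to 6. The share of all loci called in that fit is not given here.

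Between temperatures, in 2 mm WT inflorescences 2 genes were higher and 2 lower at high temperature, where 29.8% and 34.1% of all loci were and 63.8% in all, and the median size of the log2 difference was 0.23 over the 9 genes and 0.58 over all loci. At 3 mm the counts were again 2 and 2, against 30.8% and 35.0% of all loci and 65.8% in all, with median sizes of 0.14 and 0.61. DDM1b and ROS1c at 3 mm, described next, were above the median of all loci, and the difference of the medians was not tested. DDM1b was higher at high temperature in WT, at 295 ± 23.7 against 200 ± 9.62 CPM at 2 mm (log2 0.56 ± 0.0841, adjusted p = 1e-06) and 309 ± 8.02 against 199 ± 8.14 CPM at 3 mm (log2 0.64 ± 0.0842, adjusted p = 1.1e-07). DDM1a moved the other way, from 146 ± 3.48 to 124 ± 11.2 CPM at 2 mm and from 150 ± 3.03 to 128 ± 7.29 CPM at 3 mm (log2 -0.23 in each case, adjusted p = 0.016 at each length). The DDM1a calls were narrow, and leaving out replicate 2 or 3 of WT at high temperature or replicate 2 at low temperature ended that at 2 mm (adjusted p = 0.055, 0.092 and 0.057), as leaving out replicate 1 of either set did at 3 mm (adjusted p = 0.086 and 0.052). CMT3a was lower at high temperature in WT, by 0.28 on the log2 scale at 2 mm and 0.60 at 3 mm (adjusted p = 0.0051 and 4.3e-07).

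ROS1c was the second gene that was higher in WT at high temperature. It stood at 83.7 ± 12.1 against 59.6 ± 5.67 CPM at 2 mm and at 130 ± 13.8 against 66 ± 13.6 CPM at 3 mm (log2 0.49 ± 0.206 and 0.98 ± 0.206, adjusted p = 0.045 and 0.00035). The 2 mm call ended when library totals alone were used for scaling (log2 0.32, adjusted p = 0.2) and without replicate 1 or 2 at high or replicate 1 or 3 at low temperature (adjusted p = 0.067 to 0.17). With replicate 2 of the 2 mm high-temperature WT libraries left out, 2 genes (CMT3a and DDM1b) were called in that comparison in place of 4. The share of all loci called without that library is not given here. ROS1a did not differ detectably with temperature in WT, at 245 ± 50.6 and 212 ± 12.9 CPM at 2 mm and 246 ± 8.83 and 224 ± 29.5 CPM at 3 mm.

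In tap the called genes were all lower at high temperature at 2 mm and went both ways at 3 mm. The median size of the log2 difference was 0.32 over the 9 genes and 0.64 over all loci at 2 mm. At 3 mm it was 0.36 and 0.65. At 2 mm 6 genes were lower at high temperature and 0 higher, where 36.5% and 32.5% of all loci were and 69.0% in all, with a median log2 difference of -0.32 against -0.05. DDM1a was 2.11-fold lower, at 72.7 ± 5.81 against 154 ± 5.26 CPM (log2 -1.08 ± 0.0845, adjusted p = 2.4e-12), and CMT3b was 3.11-fold lower, at 3.11 ± 0.851 against 9.7 ± 1.32 CPM (log2 -1.64 ± 0.209, adjusted p = 5.4e-08). ROS1a was 1.73-fold lower, at 118 ± 22.9 against 205 ± 12.2 CPM (adjusted p = 0.00064). CMT3a, DRM2 and MET1-1 fell by 0.49, 0.32 and 0.32 on the log2 scale (adjusted p = 1e-05, 9e-04 and 0.026), and the MET1-1 call was lost without any 1 of the 3 high-temperature libraries or without replicate 1 or 2 at low temperature (adjusted p = 0.0504 to 0.0946).

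In 3 mm tap inflorescences 3 genes were lower and 2 higher at high temperature, where 35.7% and 32.9% of all loci were and 68.6% in all. DDM1a and CMT3b were again lower (log2 -0.90 ± 0.084 and -1.13 ± 0.201, adjusted p = 1e-10 and 1.2e-05). DRM2 fell by 0.22, a call that ended without replicate 3 at high or replicate 1 or 3 at low temperature (adjusted p = 0.051, 0.054 and 0.054). MET1-2 and DDM1b were higher, by 0.42 ± 0.0894 and 0.36 ± 0.0841 on the log2 scale (adjusted p = 0.00012 and 0.00045). ROS1c stood at 53.3 ± 20.2 CPM at high and 44.7 ± 1.98 CPM at low temperature in tap at 3 mm, and at 36.3 ± 6.34 and 35.8 ± 2.94 CPM at 2 mm, and was called at neither length (adjusted p = 0.29 and 0.94). Without replicate 2 at high temperature it was called at 3 mm (log2 0.49, adjusted p = 0.012). ROS1a fell short of a call at 3 mm (log2 -0.39 ± 0.181, adjusted p = 0.059) and was called without replicate 1 at high temperature (log2 -0.62, adjusted p = 0.0027), by DESeq2 (adjusted p = 0.018), with RLE size factors (adjusted p = 0.036) and with library totals alone (adjusted p = 0.015). Library totals alone also called CMT3a lower at 3 mm in tap (log2 -0.31, adjusted p = 0.0019) and DRM2 lower at 3 mm in WT (log2 -0.22, adjusted p = 0.016), where the TMM values were -0.15 and -0.09.

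**Figure D3:**
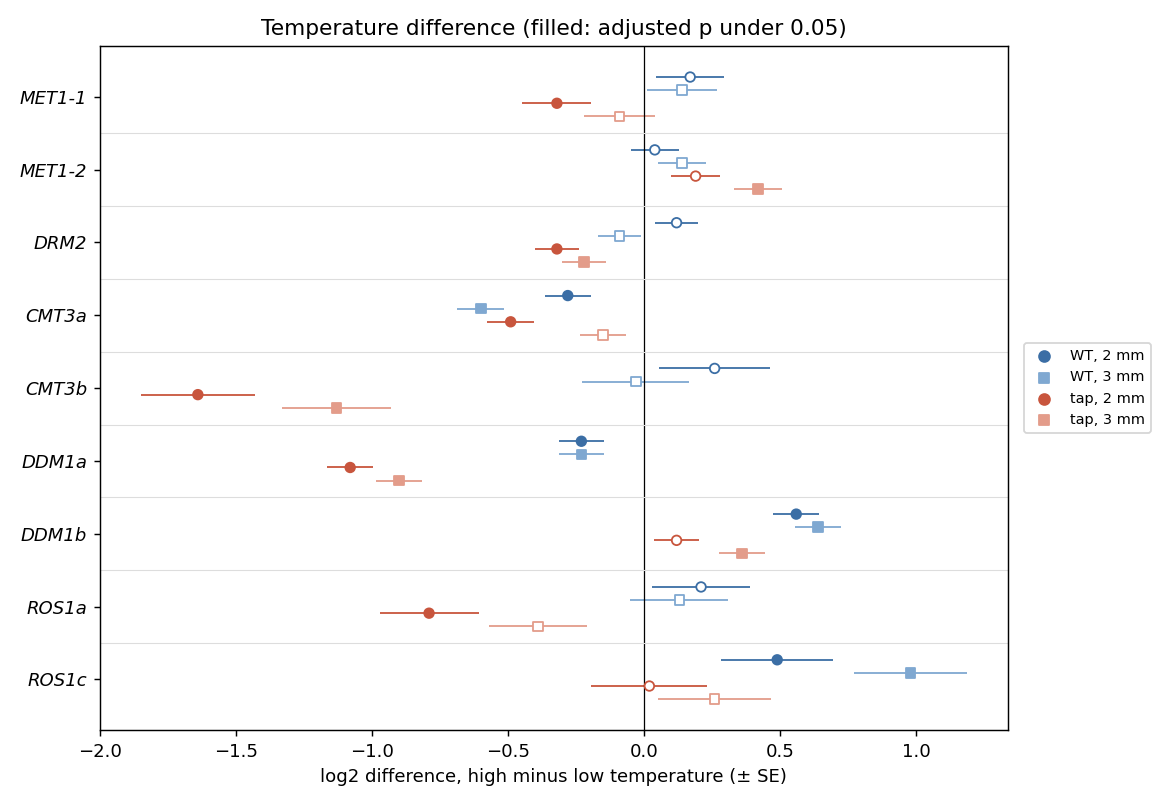
Log2 difference between high and low temperature (x axis; right of 0 is higher at high temperature; bars are ± SE of the edgeR model) for each gene (y axis) in WT and tap at each length; filled points had an adjusted p under 0.05. DDM1b lies right of 0 in WT (0.56 and 0.64) and DDM1a and CMT3b lie far left of 0 in tap.

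Few genes of the set were called between inflorescence lengths. Between 3 mm and 2 mm, edgeR called 0 of the 9 genes in WT at high temperature, 0 in WT at low temperature, 1 in tap at high temperature and 0 in tap at low temperature, where 6.37%, 0.368%, 2.21% and 1.33% of all loci were called. At an unadjusted p under 0.05 the numbers were 3, 2, 7 and 1, and DESeq2 called 1, 0, 2 and 0. The shares of all loci by these 2 measures are not given here, so these numbers are not shown to be particular to the 9 genes. The called gene was CMT3a in tap at high temperature, 1.25-fold higher at 3 mm (log2 0.32 ± 0.0859, adjusted p = 0.04), and it was not called with RLE size factors, with library totals alone, without the filter, with the 6 libraries alone, or without replicate 1 or 3 of either length. That comparison depended on single libraries: without replicate 2 of the 3 mm tap libraries 3 genes were called, ROS1a and ROS1c among them (log2 0.80 and 0.76, adjusted p = 0.0014 and 0.0067), and without replicate 2 of the 2 mm libraries 2 were. MET1-1 had a lower mean at 3 mm in each of the 4 comparisons, which share no library (log2 -0.35, -0.31, -0.06 and -0.29), and was called in none (adjusted p = 0.1 to 0.86). In WT at high temperature ROS1c was 1.56-fold higher at 3 mm, without overlap (log2 0.64 ± 0.204, edgeR adjusted p = 0.072). DESeq2 called that difference (adjusted p = 0.012), as did the fit of the 6 libraries alone (adjusted p = 0.0026). In tap at high temperature the median size of the log2 difference was 0.22 over the 9 genes and 0.18 over all loci.

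The order of the groups differed between genes of a kind. Of the 9 genes, 4 (DRM2, CMT3b, DDM1a and ROS1a) had their lowest mean in 2 mm tap at high temperature, and 3 (DDM1b, ROS1a and ROS1c) had their highest in 3 mm WT at high temperature. From the lowest to the highest group mean the genes spanned a factor of 1.27 (DRM2), 1.34 (MET1-2), 1.45 (MET1-1), 1.52 (CMT3a), 1.63 (DDM1b), 2.09 (ROS1a), 2.18 (DDM1a), 3.23 (CMT3b) and 3.64 (ROS1c), where the median of all tested loci was 2.2. Neighbouring groups in these orders mostly overlapped in their libraries: 4 to 7 of the 7 neighbouring pairs did, and for MET1-1 and ROS1a all 7. For DDM1a, 3 of the steps were free of overlap, and its 4 high-temperature groups were the 4 lowest. Such overlaps were not counted for other loci, so these numbers are not shown to be particular to the 9 genes.

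Related genes of the set can be compared within a library, since the ratio of their counts does not depend on how libraries are scaled. These ratios were examined after the values of the genes had been seen, for 4 pairs and 4 comparisons each. Each was put to a two-sided exact permutation test over libraries within each length (400 relabellings, smallest possible p = 0.005), with adjustment over the 16 tests. Most of the 16 reached that smallest p, so it does not rank them. All but the MET1-1 to MET1-2 ratio between temperatures in WT had an adjusted p under 0.05. Ratios of other loci were not tested, so a low p is not shown to be particular to related genes. The ratio of DDM1a to DDM1b counts fell from 0.727 ± 0.021 at low to 0.419 ± 0.00651 at high temperature in 2 mm WT and from 0.756 ± 0.0245 to 0.414 ± 0.018 in 3 mm WT. In tap it fell from 0.787 ± 0.0443 to 0.342 ± 0.0161 and from 0.839 ± 0.0409 to 0.351 ± 0.0124. The ratio was thus 1.78-fold lower at high temperature in WT and 2.34-fold lower in tap (exact permutation p = 0.005, adjusted p = 0.0067 for each), and no high-temperature library came near a low-temperature one. At high temperature it was also 1.2-fold lower in tap than in WT (exact permutation p = 0.005, adjusted p = 0.0067), and at low temperature it was 1.1-fold higher in tap (exact permutation p = 0.01, adjusted p = 0.011).

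The demethylase pair shifted with genotype at each temperature. At low temperature the ratio of ROS1c to ROS1a counts was 0.175 ± 0.00438 in tap and 0.281 ± 0.0101 in WT at 2 mm, and 0.188 ± 0.00401 and 0.292 ± 0.0255 at 3 mm, 1.58-fold lower in tap (exact permutation p = 0.005, adjusted p = 0.0067). All 6 tap libraries lay between 0.171 and 0.192 and all 6 WT libraries between 0.266 and 0.317. At high temperature the ratio was 0.309 ± 0.00663 in tap and 0.344 ± 0.0288 in WT at 2 mm and 0.292 ± 0.0167 and 0.53 ± 0.065 at 3 mm (exact permutation p = 0.005, adjusted p = 0.0067 over the lengths). The genotype difference at high temperature thus came mostly from 3 mm, with log2 differences of -0.15 at 2 mm and -0.86 at 3 mm. Over the lengths the ratio was 1.49-fold higher at high than at low temperature in WT and 1.65-fold higher in tap (exact permutation p = 0.005, adjusted p = 0.0067 for each).

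The ratio of CMT3b to CMT3a counts reversed between temperatures. Over the lengths it was 1.76-fold higher in tap than in WT at low temperature and 1.77-fold lower at high temperature (exact permutation p = 0.005, adjusted p = 0.0067 for each). At 2 mm its means were 0.0709 ± 0.0101 in tap and 0.0354 ± 0.00324 in WT at low temperature and 0.0317 ± 0.00813 and 0.051 ± 0.00858 at high temperature. Over the lengths it was 1.46-fold higher at high than at low temperature in WT (exact permutation p = 0.01, adjusted p = 0.011). In tap it was 2.14-fold lower at high temperature (exact permutation p = 0.005, adjusted p = 0.0067). The ratio of MET1-1 to MET1-2 counts was 1.28-fold lower in tap than in WT at high temperature (exact permutation p = 0.005, adjusted p = 0.0067) and 1.17-fold higher at low temperature (exact permutation p = 0.01, adjusted p = 0.011). In WT it did not differ detectably between temperatures (log2 difference 0.07, exact permutation p = 0.27), and in tap it was 1.43-fold lower at high temperature (log2 difference -0.52, exact permutation p = 0.005, adjusted p = 0.0067). The sources used here do not say how the counting treated reads shared by related genes, so reads may have been divided between the members of a pair.

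**Figure D4:**
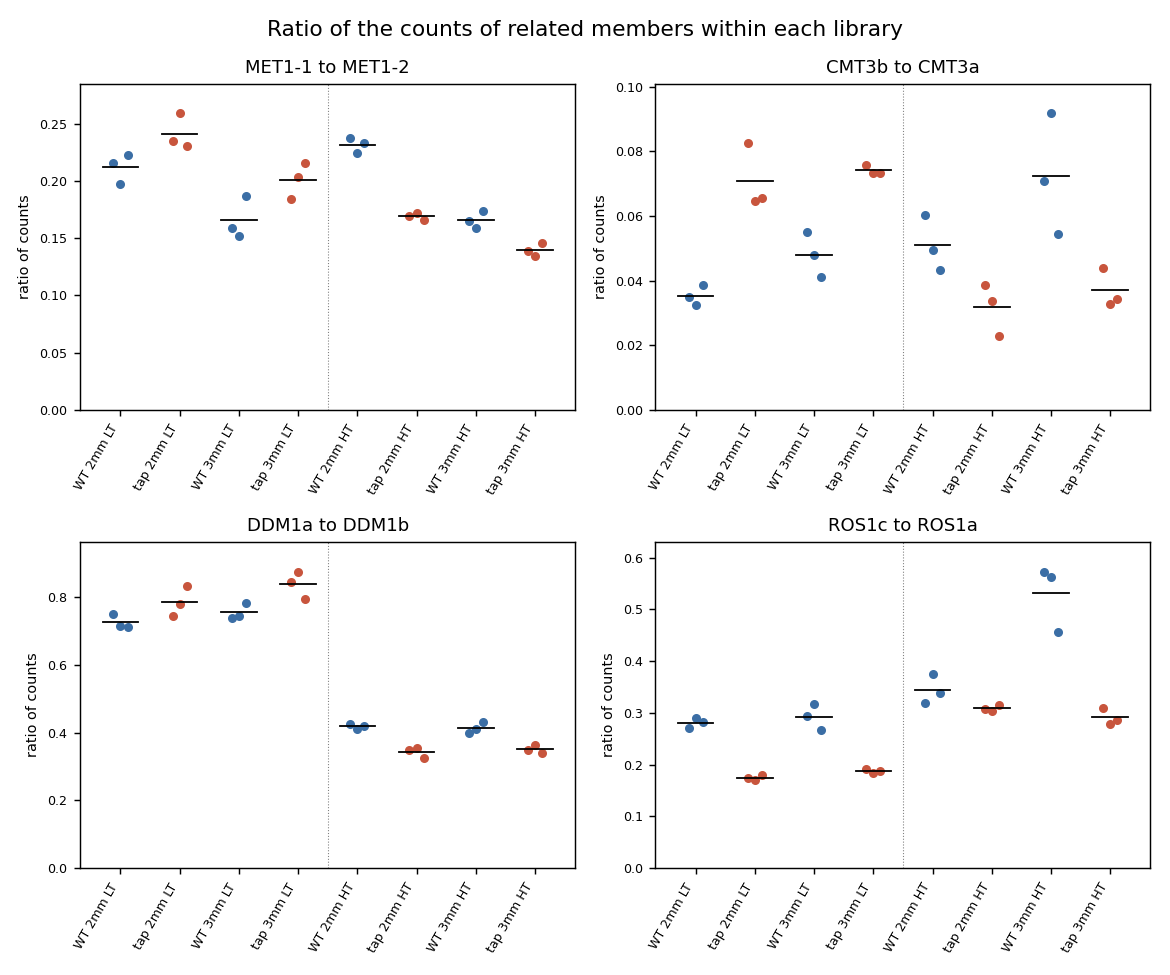
Ratio of the counts of 2 related genes in each library (y axis, from 0) for 4 pairs, by group (x axis, LT low and HT high temperature; blue WT, red tap; points are libraries and bars their means). The DDM1a to DDM1b ratio lies between 0.713 and 0.876 in all low-temperature and between 0.324 and 0.433 in all high-temperature libraries, and the ROS1c to ROS1a ratio of tap lies below that of WT at low temperature.

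Replicate libraries of 1 group did not vary independently across the genes. After each gene's group mean was taken off its log2 CPM, all 36 pairs of genes had a positive Pearson correlation over the 24 libraries (0.06 to 0.94, median 0.455), and 8 had an adjusted p under 0.05 by permutation within groups (100000 resamples, adjusted over 36 pairs). ROS1a and ROS1c were the pair most alike (Pearson's r = 0.94, permutation p = 0.00021, adjusted p = 0.0038; Spearman's rho = 0.87, permutation p = 0.00058, adjusted p = 0.012). Without the 2 libraries farthest from the median in ROS1a, replicates 1 and 2 of 3 mm tap at high temperature, r was 0.86. The points share the library, its depth and its scaling, and the part of these in the correlations was not tested. Pairs of other loci were not put to the same test, so these correlations are not shown to be particular to genes of the set. In replicate 2 of 3 mm tap at high temperature ROS1a stood at 117 CPM and ROS1c at 32.6 CPM, within the range of the 2 mm tap libraries, while replicate 1 stood at 235 and 73 CPM. Over all tested loci the root mean square difference of log2 CPM between those 2 libraries was 0.5, the largest within any group, where 0.357 separated replicates 1 and 3.

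**Figure D5:**
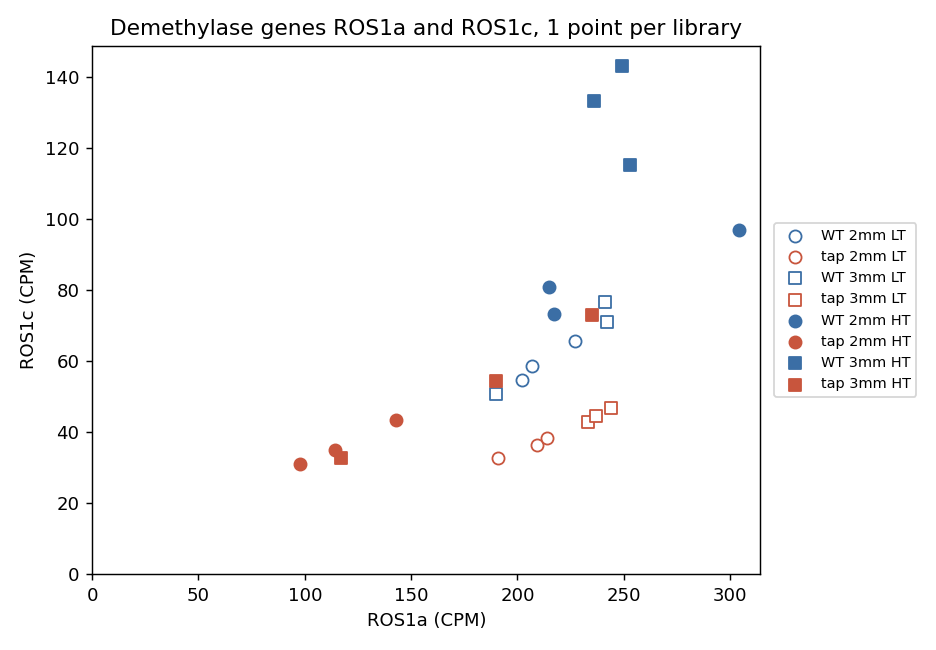
Level of ROS1c (y axis, CPM) against ROS1a (x axis, CPM), 1 point per library (blue WT, red tap; circles 2 mm, squares 3 mm; filled high and open low temperature). The 2 mm tap libraries at high temperature lie at the lower left with replicate 2 of 3 mm tap, and the low-temperature tap libraries lie below the WT libraries of like ROS1a level.

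By the rule for likeness, the locus with the highest Pearson correlation of log2 CPM to each gene over the 24 libraries was taken, as a description. For ROS1c it was LOC_Os05g37410 (r = 0.973), a locus on the same chromosome 5 that stood on the list of other demethylase loci. Its log2 differences between tap and WT at high temperature were -0.82 ± 0.233 at 2 mm and -0.87 ± 0.231 at 3 mm (adjusted p = 0.0097 and 0.0062), against -1.20 and -1.29 for ROS1c. Reads shared between related loci could raise such a likeness, which was not tested. The nearest loci of DDM1a (LOC_Os04g40040, r = 0.982), DDM1b (LOC_Os03g11470, r = 0.977) and ROS1a (LOC_Os07g29360, r = 0.964) were as close, and those of the other 5 genes had r from 0.835 to 0.921. These correlations include the differences between groups.

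Other loci listed for the methylation pathway were followed in the same fits. The count table, RefSeq's table and the labels do not pair their identifiers with names, so they are described as lists. The lists were chosen with earlier results of these data known, and single loci were named after their values were seen. Their counts beside the share of all loci are a description and not a test. Of 8 loci listed for RNA-directed methylation, the branch that guides DRM2, 6 were lower in tap and 0 higher at 2 mm and high temperature (median log2 difference -0.58), and 5 were lower and 0 higher at 3 mm (median -0.53), where 18.6% and 17.8% of all loci were lower. The largest of these falls was in LOC_Os01g16870, at -0.82 ± 0.0888 and -0.79 ± 0.0887 (adjusted p = 1.5e-08 and 3.1e-08). At low temperature 1 of the 8 was higher and 1 lower at each length, where 15.0% (2 mm) and 11.7% (3 mm) of all loci were called. The one that was higher was LOC_Os01g16870 again (log2 0.31 and 0.41, adjusted p = 0.014 and 0.0017). That locus was higher at high temperature in WT (log2 1.14 and 1.19, adjusted p = 2.8e-12 and 9.4e-13) and level in tap (log2 0.00 and -0.01, adjusted p = 0.99 and 0.96). In WT 5 of the 8 were higher and 0 lower at high temperature at each length, with median log2 differences of 0.68 and 0.85 against -0.05 for all loci, where 29.8% and 30.8% of all loci were higher. In tap 3 were higher and 2 lower at each length, with medians of -0.03 and 0.03, where 32.5% and 32.9% of all loci were higher and 36.5% and 35.7% lower.

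Of 5 loci listed as other methyltransferases 3 are in the table, and of 4 listed as other demethylases 2 are. Among the former, 2 of 3 were lower in tap at high temperature and 0 higher at each length, with the largest fall in LOC_Os05g13790 at -0.93 ± 0.146 and -0.74 ± 0.144 (adjusted p = 1.5e-05 and 0.00021). Both other demethylase loci were lower in tap at high temperature at each length. Of all loci 18.6% (2 mm) and 17.8% (3 mm) were lower in those comparisons. At low temperature 0 of the 3 methyltransferase loci were called at either length, and 1 of the 2 demethylase loci was lower at 2 mm and 0 at 3 mm. Of all loci 7.3% were lower and 15.0% called in all at 2 mm, and 11.7% were called at 3 mm. All 3 other methyltransferase loci were higher at high temperature in WT at each length, where 29.8% and 30.8% of all loci were. The list medians in WT, 0.56 at 2 mm and 0.48 at 3 mm, were on the other side of 0 from those of CMT3a (-0.28 and -0.60).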

How the data were processed

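RNA was sequenced from 24 inflorescence libraries. The labels' protocols name a Qiagen RNeasy kit for the RNA and a SMARTER kit for the libraries. The submitters' processing notes list Trimmomatic, HISAT2 and HTSeq and the build IRGSP-1.0, while versions, annotation release and strand setting were not found in the labels. The authors deposited raw counts of reads for 26480 loci in 1 table. The high-temperature mutant columns are named iHT and were assigned to tap by inference, since all other columns of that temperature carry the name WT. Sample titles call the mutant ild and the genotype field tap. The deposited rows sum to at least 10 counts over the low-temperature libraries, while 723 loci are at 0 in all high-temperature libraries; 70 loci without a high-temperature value were left out.

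Counts were fitted with edgeR 4.0.16 (R 4.3.3; TMM, filterByExpr, robust quasi-likelihood F test) in 1 model of all 24 libraries with 8 group means, 16 residual degrees of freedom and 14 contrasts, and p-values were adjusted within a contrast over 23658 loci by the Benjamini-Hochberg method. Levels are CPM; correlations were taken on log2 CPM (prior count 2). Replicates differed by more than counting noise, so none was merged. The model was tested on simulated data. Alternatives were RLE scaling, library totals, DESeq2 1.42.0, no filter, the compared groups alone, a replicate block and each library left out. The named genes are the 9 of the fixed list, plus the most alike locus of each; the genes and the marker and pathway lists (inflorescence, leaf, anther, replication, other methyltransferase, other demethylase and RNA-directed methylation) were chosen with earlier results of these data known. Loci of the lists were named after their values were seen. Gene and protein sequences were not used here.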

Additional observations from a re-analysis of the deposited data

Results flagged for a closer look

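The genotype difference was tested for dependence on temperature, and the results for 9 combinations of gene and length passed that test (edgeR interaction, adjusted p under 0.05). At 2 mm the interactions were -1.89 for CMT3b, -1 for ROS1a, -0.85 for DDM1a, -0.50 for MET1-1, -0.44 for DDM1b and -0.43 for DRM2 on the log2 scale. At 3 mm they were -1.11 for CMT3b, -0.67 for DDM1a and 0.45 for CMT3a. The temperature sets differ in column naming and in the choice of rows, and how far these enter the interactions was not tested.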

How the results depend on the processing

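Of the 43 calls of a gene in a comparison, DESeq2 and the replicate block kept all 43, RLE size factors 41, library totals alone 40, no filter 40 and the compared groups alone 39; leaving out 1 library kept 272 of 312, and 0 calls reversed under any of these. With the compared groups alone, the genes called between tap and WT numbered 4 at 2 mm and low, 3 at 3 mm and high and 2 at 3 mm and low temperature; between lengths they numbered 1 in WT at high, 0 in tap at high and 2 in tap at low temperature. DESeq2 called 1 gene between tap and WT at 3 mm and low temperature, 1 between lengths in WT and 2 in tap at high temperature, and 5 interactions at 3 mm. Between lengths in tap at high temperature, RLE size factors, library totals and no filter each gave 0 genes. The cause of these shifts was not tested. Leaving out single libraries gave, for tap against WT, 6 to 8 genes at 2 mm and high, 1 to 2 at 2 mm and low, 4 to 6 at 3 mm and high and 0 to 1 at 3 mm and low temperature. For temperature in WT it gave 2 to 3 (2 mm) and 3 to 4 (3 mm), and in tap 5 to 6 (2 mm) and 4 to 6 (3 mm). For length it gave 0 to 1 in WT and 0 to 3 in tap at high and 0 in each at low temperature, and for the interaction 5 to 6 at 2 mm and 3 to 6 at 3 mm. The deviations of same-numbered libraries from their group means correlated weakly (r = -0.13 to 0.16 over 36 pairs, over 0.1 in 4). Those 4 were all at high temperature: 0.12 and 0.13 between tap and WT at 2 mm, 0.13 at 3 mm, and 0.16 between lengths in tap. Whether the numbers pair some samples was not settled by this. With the replicate block 7, 2, 6 and 0 genes were called for tap against WT (2 mm high, 2 mm low, 3 mm high, 3 mm low); the calls gained over all comparisons were ROS1a at 3 mm and high temperature (adjusted p = 0.0498) and ROS1a between temperatures in tap at 3 mm (adjusted p = 0.0488). Of 192 count ratios with a library left out, 191 kept their side of the threshold of the exact permutation test, 1 (MET1-1 to MET1-2 between temperatures in WT) passed it and 0 reversed. Library totals alone moved the median log2 difference of all loci between temperatures from -0.05 to -0.22 in WT at 2 mm. CMT3b is limited by its 40 to 240 counts.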
